A study of Homo sapiens with 4 samples.

Results

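The genes described here encode the proteins of the cytosolic ribosome and the factors that help it to start, elongate and end a protein. They were chosen by symbol alone (RPL and RPS followed by a digit, P or A, without the RPS6K kinases, together with EIF, EEF, ETF1 and GSPT), and 137 of the 9885 genes in the table fitted. Of these, 75 were counted as ribosomal protein genes, 44 of them named RPL and 31 RPS, with 2 read-through genes among them. Another 54 were counted as translation factor genes. That class was also set by symbol, and it takes in enzymes that act on the factors and relatives by name such as EIF4A3. The other 8 are 6 pseudogenes, the non-coding RNA EIF3J-AS1 and RPS19BP1, which encodes a binding partner of a ribosomal protein.

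The study asked how isoforms of ECM1, an extracellular matrix protein, act in ovarian cancer cells, and sequenced RNA from HeyA8 and 3 lines made from it, with 1 library each. A8 is parental HeyA8, an established human ovarian cancer line. A8i is HeyA8 with stable silencing of ECM1 by a short hairpin RNA, A8i-A is A8i with stable ECM1a, and A8i-B is A8i with stable ECM1b, so that A8i, A8i-A and A8i-B all carry the hairpin. Control lines with a scrambled hairpin or an empty vector were not analysed here, and a line is compared with another line whatever else came with its selection.

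The ribosome is built of RNA and proteins in a small subunit, which reads the mRNA, and a large subunit, which joins amino acids. Initiation factors bring the start tRNA (eIF2), hold the small subunit (eIF3) and recruit the capped mRNA (eIF4E, eIF4G and eIF4A), elongation factors deliver each further tRNA and move the ribosome on, and release factors free the finished protein. The mRNAs of ribosomal proteins and several factors begin with a C followed by a run of pyrimidines, the 5′ terminal oligopyrimidine (TOP) tract, through which mTORC1 and LARP1 set their translation. Many genes of the group also make alternatively spliced mRNAs, among them non-productive ones.

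Each value is a whole number of events for 1 gene in 1 library, from 0 to 32 in the whole table. The kind of event and the program that counted it are not given in the sources used here, and they are not read counts or expression levels. They are called events throughout, and more events for a gene do not mean more of its mRNA. The whole table held 24513 (A8), 20535 (A8i), 22691 (A8i-A) and 24236 events (A8i-B), and ECM1 itself had 2 events in each library, so that neither the silencing nor the cell type could be checked from these values. Where 4 numbers follow each other with no line named, they stand in the order A8, A8i, A8i-A, A8i-B. The RNA came from whole cultures, in which fewer cells of a kind and less RNA per cell cannot be told apart. With 1 library per cell line no test could be made, every difference below is between libraries, and intervals cover counting error only.

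The starts of the genes show the TOP tract that marks the ribosomal protein class. RefSeq promoters (250 bases before to 50 bases after the annotated start, GRCh38.p14) were matched for 61 of the 75 ribosomal protein genes and 45 of the 54 factor genes. A C at the start followed by at least 4 pyrimidines was found in 44 of the 61 ribosomal protein genes (72.1%), in 10 of the 45 factor genes (22.2%) and in 5.14% of all 27305 genes with a promoter. With the tract allowed to begin within 5 bases of the start, these shares were 82.0%, 42.2% and 25.2%. For promoters, all genes means these 27305 and not the 9885 of the table, and the tract means the one at the start itself. The factor genes with a tract were EEF1A1, EEF1B2, EIF2A, EIF2D, EIF3D, EIF3F, EIF3K, EIF3M, EIF4A2 and EIF4B. The windows below hold 10 bases before the start and 20 from it on, 5′ to 3′ on the gene's strand, and are shown for members to which the results return. Their coordinates are those of GRCh38.p14, whereas gene positions further on are those of GRCh37, the build (hg19) to which the reads were mapped. Capitals mark the run of pyrimidines that begins with a C at the annotated start. Where several starts were listed, a gene counted as having the tract if any of them did. The window of such a gene is that of the start with the longest tract. The first 5 are ribosomal protein genes with a tract, the next 3 are factor genes with a tract, and the last 4 are factor genes whose annotated start has no tract of that length.
RPS3 (chr11:75399508-75399537, forward strand): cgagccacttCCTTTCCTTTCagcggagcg
RPLP0 (chr12:120201092-120201121, reverse strand): ggcgcgaggcCCTTCTCTCgccaggcgtcc
RPL27A (chr11:8682782-8682811, forward strand): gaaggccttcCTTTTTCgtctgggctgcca
RPS9 (chr19:54200848-54200877, forward strand): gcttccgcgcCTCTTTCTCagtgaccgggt
RPL13A (chr19:49487598-49487627, forward strand): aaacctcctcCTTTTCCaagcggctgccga
EEF1B2 (chr2:206159885-206159914, forward strand): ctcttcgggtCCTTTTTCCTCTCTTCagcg
EIF3F (chr11:7987327-7987356, forward strand): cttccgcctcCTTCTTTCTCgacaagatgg
EIF2A (chr3:150546777-150546806, forward strand): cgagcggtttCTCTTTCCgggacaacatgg
EIF4A1 (chr17:7572815-7572844, forward strand): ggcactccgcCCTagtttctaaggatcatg
EIF4E (chr4:98929114-98929143, reverse strand): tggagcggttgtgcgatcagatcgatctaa
EIF2B2 (chr14:75002911-75002940, forward strand): cgcccgccccggaagtgcaaactgtgtggt
EIF3B (chr7:2354817-2354846, forward strand): tcgcacgcacatggctgggctgtagccgtc

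RPS15, RPL6, RPL15, RPL17 and RPS4X had no tract of that length at any start that RefSeq lists, and the start used in these cells may be another. The tract had a median length of 8 bases in the 44 ribosomal protein genes and 7.5 in the 10 factor genes, and at most 16. A motif core bound by ETS factors, CCGGAAG on either strand of the 300-base promoter, was present in 34.4% of the ribosomal protein genes, 35.6% of the factor genes and 12.2% of all genes. TATAAA was present in 11.5%, 4.44% and 14.0%, and the YY1 core ATGGCGGC in 4.92%, 13.3% and 3.67%, in the same order. Within the ribosomal protein genes, those with and without the tract had the same median of 8 events summed over the 4 libraries, and 19 of 44 with it and 6 of 17 without it had the same number of events in every library.

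The 75 ribosomal protein genes together listed nearly the same number of events in all 4 lines, whereas the 54 factor genes listed fewest in A8i. The ribosomal protein genes had 224 (A8), 224 (A8i), 228 (A8i-A) and 236 events (A8i-B). The factor genes had 178, 152, 201 and 198 events in the same order. The ribosomal protein total of A8i was 100% of that of A8 (95% exact interval, 82.7–120.9%), and the factor total was 85.4% (68.3–106.6%), beside 83.8% (82.2–85.3%) for all genes in the table. The interval of each class holds both 100 and the value for all genes, so at these counts neither class could be told apart from the table in this pair. As shares of each library's events, A8i stood at 119.4% of A8 for ribosomal protein genes and at 101.9% for factor genes, so that the level total of the first and the lower total of the second hold for unscaled numbers alone.

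Against A8i, factor genes stood at 132.2% with ECM1a (106.6–164.3%) and at 130.3% with ECM1b (104.9–162.0%), and the ribosomal protein totals were 101.8% (84.3–122.9%) and 105.4% (87.4–127.1%). Both comparisons share the A8i library, which had the fewest events of the table as a whole, and all genes stood at 110.5% and 118.0%. The intervals of both classes hold these values, so at these counts neither class could be told apart from the table in these pairs either. On shares, the factor genes stood at 119.7% and 110.4% of A8i and the ribosomal protein genes at 92.1% and 89.3%, so the direction of the factor genes held and that of the ribosomal protein genes turned. Over the 137 genes together, A8 had 413 events (95% exact Poisson interval, 374–455), A8i 384 (347–424), A8i-A 440 (400–483) and A8i-B 441 (401–484). As a share of each library's events these totals were 1.68%, 1.87%, 1.94% and 1.82%, so the order of A8 and A8i and that of A8i and A8i-B turn with the scale: on shares, A8i stood at 111.0% of A8 in place of 93.0%, and A8i-B at 97.3% of A8i in place of 114.8%.

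**Figure D1:**
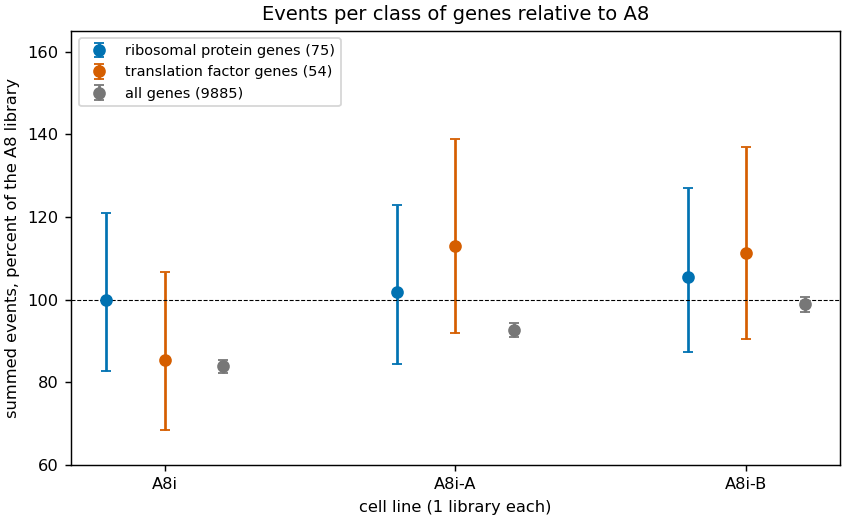
Summed events of each gene class in A8i, A8i-A and A8i-B as a percent of the A8 library (y axis), with 95% exact intervals that cover counting error only and a dashed line at 100%. The ribosomal protein points lie between 100 and 105.4%, and the translation factor points at 85.4, 112.9 and 111.2%.

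Events were listed broadly over the group. At least 1 event was listed for 117 of the 137 genes for A8 (85.4%), 116 for A8i (84.7%), 122 for A8i-A (89.1%) and 126 for A8i-B (92.0%), beside 82.2%, 73.7%, 78.9% and 81.6% of all genes. Of the 75 ribosomal protein genes, 65, 70, 69 and 70 had an event, and of the 54 factor genes 47, 41, 48 and 50. A total of 104 members had an event in all 4 libraries (75.9%), as did 60.6% of all genes. EIF2S1, which encodes the alpha subunit of eIF2 that stress kinases phosphorylate, was the 1 member with 0 events in every library, as were 167 genes of the table.

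The ribosomal protein genes also varied little one by one. The same number of events, above 0, stood in all 4 libraries for 38 members, 29 of them ribosomal protein genes and 8 factor genes, beside 13.6% of all genes. The number of events in the highest library was 4 or more above that in the lowest for 4 of the 75 ribosomal protein genes (5.33%) and 8 of the 54 factor genes (14.8%), beside 13.3% of all genes. Genes with few events can tie easily: 13 ribosomal protein genes and 5 factor genes had exactly 1 event in every library. Among genes with an event in all 4 libraries, 38 of 104 members (36.5%) and 1345 of 5986 genes (22.5%) had the same number throughout.

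**Figure D2:**
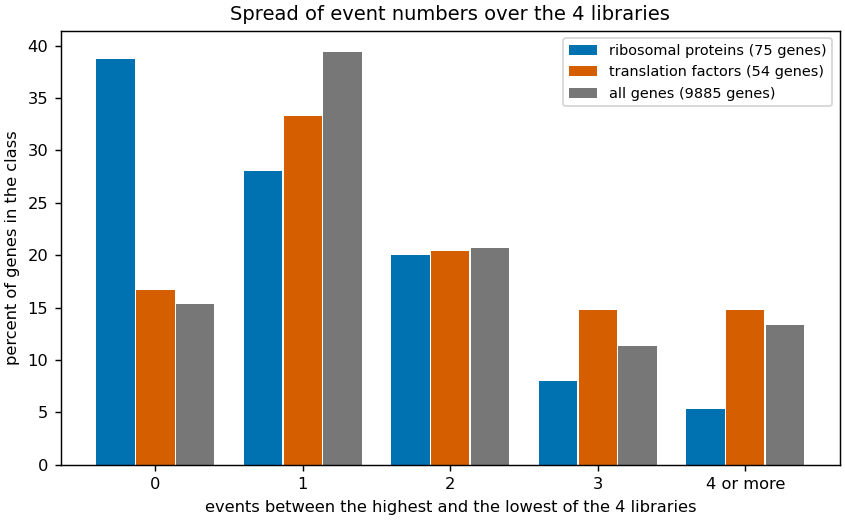
Percent of genes in each class (y axis) by the number of events between the highest and the lowest library (x axis, the last bar being 4 or more). The ribosomal protein bars are tallest at 0, with 38.7%, whereas the translation factor bars and those of all genes are tallest at 1, with 33.3% and 39.4%.

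In the large subunit, the 44 RPL genes had 124 (A8), 121 (A8i), 134 (A8i-A) and 137 events (A8i-B), and 15 had the same number in all 4 libraries. RPL17 (chromosome 18, 47014823–47018878 of GRCh37, reverse strand), a protein near the peptide exit tunnel, had 11 events in every library. RPL30 had 6 events in every library, RPL10A and RPL41 had 5, and RPL18 had 4. RPLP0 (chromosome 12, 120634502–120639038), the base of the stalk that recruits translation factors, had 13 (A8), 12 (A8i), 14 (A8i-A) and 13 events (A8i-B). RPLP1, another stalk protein, had 2, 4, 2 and 4. The values of the stalk genes thus overlap between the lines with and without an added isoform. RPL7L1, a relative of RPL7 that takes part in subunit assembly, had 4, 3, 3 and 4 events.

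A few large subunit genes had numbers further apart. RPL27A (chromosome 11, 8704335–8736306 of GRCh37, forward strand) had 6 (A8), 6 (A8i), 10 (A8i-A) and 7 events (A8i-B), and was highest in A8i-A. RPL6 (chromosome 12, 112842993–112856642, reverse strand) had 0, 1, 3 and 3 events, with both isoform lines above A8 and A8i. RPL13A, also known for its part in silencing inflammatory mRNAs once it leaves the ribosome, had 10, 9, 9 and 7. RPL15 was listed with 2 events in A8i-B and 0 in the other libraries.

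In the small subunit, the 31 RPS genes had 100 (A8), 103 (A8i), 94 (A8i-A) and 99 events (A8i-B), and 14 of them had the same number in all 4 libraries, RPS16 with 5 events in each being an example. RPS3 (ENSG00000149273; chromosome 11, 75110559–75133324 of GRCh37, forward strand), which lies at the mRNA entry channel and also takes part in DNA repair, had 17 (A8), 13 (A8i), 15 (A8i-A) and 13 events (A8i-B). It had the most events of the ribosomal protein genes and was highest in A8. RPS15 (chromosome 19, 1438357–1440494), at the decoding side of the small subunit, had 12, 13, 10 and 12, with the lowest number in A8i-A.

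Single small subunit genes had low numbers in 1 isoform line. RPS15A (chromosome 16, 18792617–18801705 of GRCh37, reverse strand) had 9 (A8), 9 (A8i), 3 (A8i-A) and 9 events (A8i-B). RPS9 (chromosome 19, 54704677–54752862, forward strand), which helps to hold the mRNA entry channel, had 6, 6, 6 and 2. RPS2, a neighbour of RPS3 at that channel, had 9, 9, 6 and 9. RPS15A and RPS2 were thus lowest in A8i-A and RPS9 in A8i-B, with the other 3 libraries level in each case. RPS4X (X chromosome, 71475529–71497098, reverse strand) differed in another way, with 3 events in A8 and 1 in each line that carries the hairpin. RPS27L, a p53 target related to RPS27, had 2, 2, 2 and 3.

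**Figure D3:**
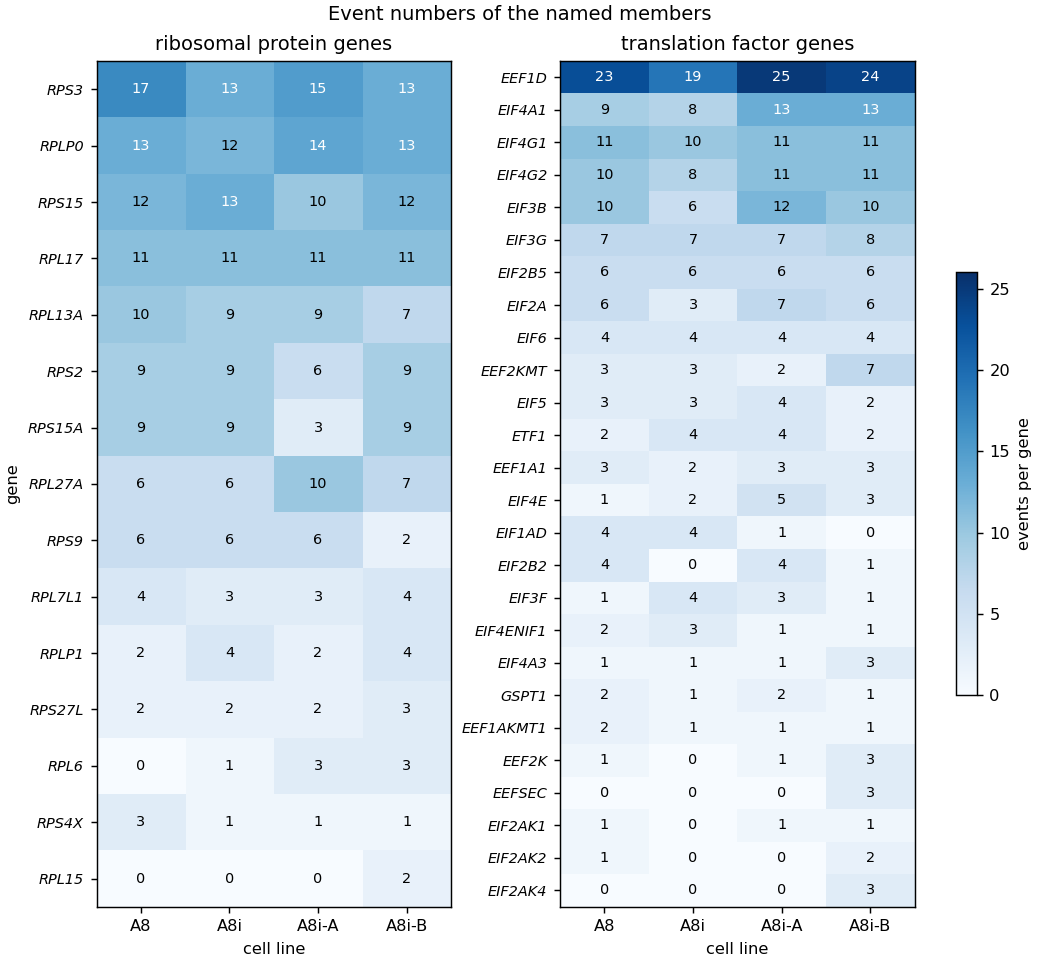
Events per gene (colour, with the number in each cell) for the members named by rule, in columns for the 4 cell lines with 1 library each. EEF1D and RPS3 head their classes, RPL17 and EIF2B5 are the same across their rows at 11 and 6 events, and the dips of RPS15A in A8i-A and EIF2B2 in A8i stand out from their rows.

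Among the initiation factors, eIF3 is the large complex that holds the small subunit and the mRNA together. Its 13 genes with a row had 41 (A8), 37 (A8i), 51 (A8i-A) and 46 events (A8i-B). In A8i these genes kept 90.2% of their A8 number, beside 83.8% over all genes. No interval was made for this list, so it was not told apart from the table. EIF3B (chromosome 7, 2393721–2420380 of GRCh37, forward strand), a scaffold subunit, had 10, 6, 12 and 10 events and was lowest in A8i. Its fall from 10 to 6 was as large as that of all eIF3 genes from 41 to 37, so the others together were level in A8 and A8i. EIF3L had 4, 2, 5 and 3, and EIF3K 3, 2, 3 and 3, so that these accessory subunits were lowest in A8i as well. EIF3F (chromosome 11, 7991798–8023409, forward strand), a subunit with a deubiquitinase-type fold, went the other way with 1, 4, 3 and 1. EIF3G, which supports scanning and reinitiation, had 7, 7, 7 and 8, and EIF3D, which can itself bind a cap, had 3 in every library.

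The eIF4 factors bind the cap and unwind the start of the mRNA. Their 9 genes with a row had 53 (A8), 48 (A8i), 64 (A8i-A) and 61 events (A8i-B). In A8i they kept 90.6% of their A8 number, beside 83.8% over all genes, again without an interval. EIF4A1 (chromosome 17, 7476142–7482324 of GRCh37, forward strand), the main RNA helicase of the complex, had 9, 8, 13 and 13 events, and both isoform lines exceeded A8 and A8i by at least 4. EIF4A2, its close paralog, had 6, 6, 8 and 8. EIF4G1 (chromosome 3, 184032283–184053146, forward strand), the scaffold that joins cap, helicase and eIF3, had 11, 10, 11 and 11, and EIF4G2, a relative that works without the cap-binding protein, had 10, 8, 11 and 11. EIF4E (chromosome 4, 99800427–99850284, reverse strand), the cap-binding protein itself, had 1, 2, 5 and 3 events and was highest in A8i-A. EIF4ENIF1, which carries eIF4E into the nucleus and represses it, had 2, 3, 1 and 1. EIF4A3, a helicase of the same fold that belongs to the exon junction complex and not to initiation, had 1, 1, 1 and 3.

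The eIF2 complex carries the start tRNA, and eIF2B reloads it with GTP. The 8 genes grouped with them here, which include EIF2S1 and the related EIF2A and EIF2D, had 25 (A8), 16 (A8i), 27 (A8i-A) and 22 events (A8i-B). Of these, 0 had more events in A8i than in A8, beside 19.7% of all genes, and 4 had fewer, beside 38.5%. The largest falls were those of EIF2B2 and EIF2A. EIF2B5 (6 events in every library), the catalytic subunit of eIF2B, did not differ. EIF2B2 (chromosome 14, 75469624–75479069 of GRCh37, forward strand), a regulatory subunit, had 4, 0, 4 and 1 events. EIF2A (chromosome 3, 150264465–150303803, forward strand), which can bring the start tRNA without GTP and is no part of the eIF2 complex proper, had 6, 3, 7 and 6. The 4 kinases that phosphorylate eIF2 had few events, 2, 1, 2 and 6 in all. EIF2AK4 (GCN2), which senses uncharged tRNA, had 3 events in A8i-B and 0 in the other libraries. EIF2AK2 (PKR), which senses double-stranded RNA, had 1, 0, 0 and 2, and EIF2AK1 (HRI), which senses heme, had 1, 0, 1 and 1.

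A list on start site selection and subunit joining, which also took in EIF1AD, had 13, 12, 11 and 8 events over 5 genes. Of these, EIF6, which keeps the subunits apart, had 4 in every library, and EIF5, which triggers GTP hydrolysis by eIF2, had 3, 3, 4 and 2. EIF1AD (chromosome 11, 65764016–65769647 of GRCh37, reverse strand), a relative of eIF1A, had 4 (A8), 4 (A8i), 1 (A8i-A) and 0 events (A8i-B), so that both isoform lines were below the other lines. No other gene of the list had both isoform lines below both A8 and A8i, so the lower list totals of these lines rest on EIF1AD.

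In elongation, 8 genes with a row had 31, 25, 34 and 37 events. EEF1D, a subunit of the exchange factor that reloads eEF1A with GTP, had 23 (A8), 19 (A8i), 25 (A8i-A) and 24 events (A8i-B), the highest numbers of the whole group in each library. EEF1A1, which delivers tRNAs to the ribosome, had 3, 2, 3 and 3, and EEF1B2, another exchange factor subunit, had 1, 1, 2 and 3. EEFSEC, which delivers the selenocysteine tRNA, was listed with 3 events in A8i-B and 0 elsewhere. The 3 measured enzymes that modify eEF1A and eEF2 had 6, 4, 4 and 11 events. EEF2KMT (chromosome 16, 5134285–5147796, reverse strand), a methyltransferase of eEF2, had 3, 3, 2 and 7, whereas EEF1AKMT1, a methyltransferase of eEF1A, had 2, 1, 1 and 1. EEF2K, the kinase that stops eEF2, had 1, 0, 1 and 3. In termination, ETF1, which reads stop codons, had 2, 4, 4 and 2, and its GTPase partner GSPT1 had 2, 1, 2 and 1.

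**Figure D4:**
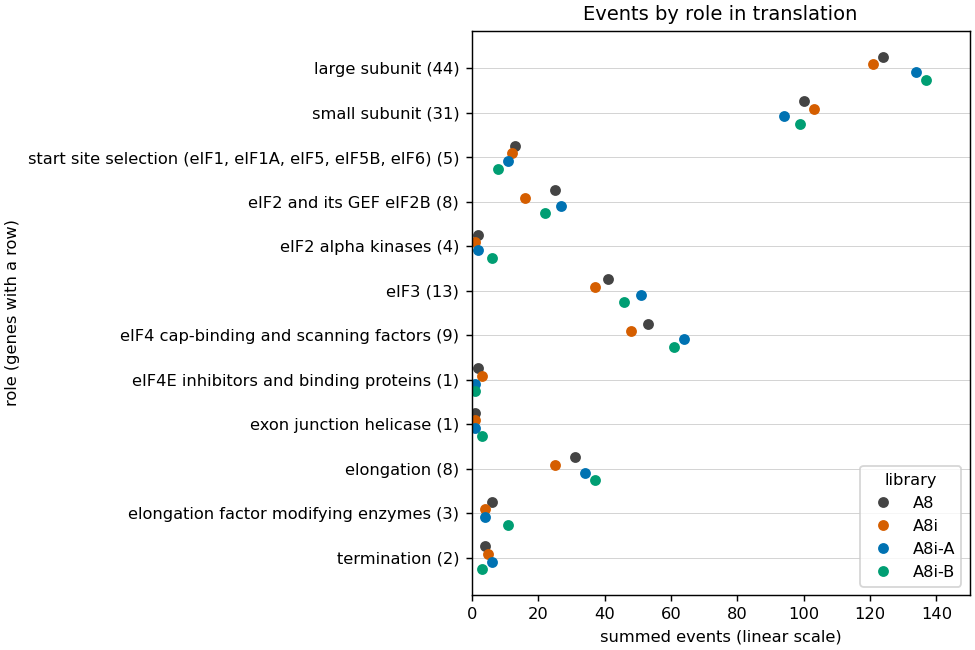
Summed events (x axis, linear scale) of the genes of each role (y axis, with the number of genes with a row) in the 4 libraries. The A8i point is the lowest of its row for the large subunit, eIF2 and eIF2B, the eIF2 alpha kinases, eIF3, eIF4 and elongation. The large subunit row spans 121 to 137 events, the eIF4 row 48 to 64 and the small subunit row 94 to 103. Over all genes A8i also had fewer events, at 83.8% of A8. The large subunit (97.6%), eIF3 (90.2%) and eIF4 (90.6%) lay above that value. Elongation (80.6%, 25 events against 31) and eIF2 with eIF2B (64.0%, 16 against 25) lay below it. So did the eIF2 alpha kinases (50.0%), which had 1 event in A8i and 2 in A8. No intervals were made for the roles, so none was told apart from the value for all genes.

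Silencing of ECM1 was addressed by A8i against A8. The initiation genes EIF2B2, EIF3B and EIF2A had fewer events in A8i, EIF3F and RPS14 had more, and the ribosomal protein genes as a class had the same unscaled total. More events stood in A8i for 24 members (17.5% of members, 19.7% of all genes), fewer for 41 (29.9% of members, 38.5% of all genes) and the same number for 72 (52.6% of members, 41.7% of all genes). With each library scaled to the mean total, ties move to the side of the smaller library, and the split became 91 members with more and 36 with fewer. Scaled counts were made for members only, so here and below they have no share over all genes beside them. Unscaled, 16 of the 75 ribosomal protein genes had more and 15 fewer. Of the 54 factor genes, 7 had more and 23 fewer. A8i alone was lowest for 26 members (19.0% of members, 14.6% of all genes), 16 of them factor genes and 8 ribosomal protein genes. The 16 were EEF1A1, EEF1D, EEF1E1, EEF2K, EIF2A, EIF2AK1, EIF2B2, EIF2B3, EIF3B, EIF3E, EIF3K, EIF3L, EIF4A1, EIF4G1, EIF4G2 and EIF4G3. By the exact binomial limits used for totals, 0 of the members had a single-gene difference outside counting error in any of the 6 pairs of libraries, the larger ones such as EIF3B and EIF2B2 included. A8i alone was highest for 11 members (8.03% of members, 8.87% of all genes), 8 of them ribosomal protein genes. The other lines gave A8 alone lowest for 7 (5.11% of members, 6.02% of all genes) and highest for 10 (7.3% of members, 16.6% of all genes), A8i-A alone lowest for 5 (3.65% of members, 9.07% of all genes) and highest for 18 (13.1% of members, 12.6% of all genes), and A8i-B alone lowest for 6 (4.38% of members, 6.17% of all genes) and highest for 19 (13.9% of members, 16.2% of all genes). A limit of a 2-fold difference, with 1 event added to each number and at least 2 events between them, was passed upward by EIF3F and RPS14 (2 members, beside 3.46% of all genes) and downward by EIF2B2, RPL32P3 and RPS4X (3 members, beside 10.2% of all genes). EIF3B and EIF2A did not pass it.

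The return of ECM1a was addressed by A8i-A against A8i. The cap-binding EIF4E, the helicase EIF4A1, EIF2B2 and EIF3B had more events with ECM1a, whereas RPS15A and EIF1AD had fewer. More events stood in A8i-A for 45 members (32.8% of members, 33.6% of all genes), fewer for 20 (14.6% of members, 23.3% of all genes) and the same number for 72 (52.6% of members, 43.1% of all genes). Scaled, 44 had more and 84 fewer. The unscaled 45 held 26 factor genes and 17 ribosomal protein genes. Past the 2-fold limit, 7 members were higher (5.11% of members, 8.35% of all genes), among them EIF4E, RPL6, EIF3L, EIF2A, EIF3J-AS1 and EIF2B2. EIF4A1 and EIF3B did not pass it. The 4 that were lower (2.92% of members, 4.82% of all genes) were RPS14, EIF1AD, RPS15A and EIF4ENIF1.

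The return of ECM1b was addressed by A8i-B against A8i, which shares the A8i library with the last comparison. EIF4A1, EEF2KMT, EIF2AK4 and EEFSEC had more events with ECM1b, and RPS9, EIF1AD and EIF3F had fewer. More events stood in A8i-B for 54 members (39.4% of members, 38.0% of all genes), 29 of them factor genes and 21 ribosomal protein genes, fewer for 22 (16.1% of members, 20.2% of all genes), and the same number for 61 (44.5% of members, 41.9% of all genes). Scaled, 50 had more and 85 fewer. Past the limit, 10 were higher (7.3% of members, 10.7% of all genes), among them EEF1B2, EEF2KMT, RPL6, EIF4A3, EIF2AK2, RPL15, EIF2AK4, EEF2K and EEFSEC. EIF4A1 did not pass it. The 6 that were lower (4.38% of members, 3.96% of all genes) were EIF1AD, RPL23AP82, EIF3F, RPS9, RPL23AP7 and EIF4ENIF1. EEF2K, EEFSEC, EIF2AK2, EIF2AK4 and RPL15 had 0 events in A8i, and a fold against 0 rests on the event added.

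The isoform lines were also set against each other. RPS15A, EEF2KMT and EIF2AK4 had more events with ECM1b and RPS9, EIF2B2 and EIF3F more with ECM1a, whereas EIF4A1 had 13 in both lines. More events stood in A8i-A than in A8i-B for 33 members (24.1% of members, 25.0% of all genes), fewer for 31 (22.6% of members, 32.4% of all genes) and the same number for 73 (53.3% of members, 42.6% of all genes). Scaled, 101 had more and 31 fewer. The 6 past the limit upward (4.38% of members, 5.13% of all genes) were RPL23AP7, EIF3F, EIF3J-AS1, RPS9, EIF2B2 and RPL23AP82, and the 9 downward (6.57% of members, 8.31% of all genes) were EEFSEC, EIF2AK4, EIF2AK2, RPL15, RPL32, EEF2KMT, RPS15A, EEF2K and EIF4A3. For RPS15A the log2 difference was -1.32, from 9 events in A8i-B to 3 in A8i-A, and for RPS9 it was 1.22, from 2 to 6.

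Against A8, which was never silenced, A8i-A had more events for 38 members (27.7% of members, 24.9% of all genes) and fewer for 21 (15.3% of members, 33.4% of all genes), and A8i-B had more for 38 (27.7% of members, 28.6% of all genes) and fewer for 19 (13.9% of members, 29.6% of all genes). The number was the same as in A8 for 78 members in A8i-A (56.9% of members, 41.7% of all genes) and for 80 in A8i-B (58.4% of members, 41.8% of all genes). Scaled, 103 had more and 21 fewer in A8i-A, and 109 and 19 in A8i-B. These comparisons share the A8 library. Past the limit, 4 members were higher in A8i-A (2.92% of members, 4.83% of all genes) and 3 lower (2.19% of members, 7.94% of all genes), and 10 were higher in A8i-B (7.3% of members, 6.16% of all genes) and 6 lower (4.38% of members, 6.49% of all genes). EIF1AD and RPS4X were lower and EIF4E and RPL6 higher in both lines. Over the 6 pairs of libraries, 111 of the 137 members (81.0%) passed the limit in none, beside 67.4% of all genes, 67 of them ribosomal protein genes and 40 factor genes.

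The 8 members that are neither ribosomal proteins nor factors had 11, 8, 11 and 7 events. RPL23AP7, a pseudogene of RPL23A, had 4, 3, 3 and 1, RPL23AP82, another such copy, had 2, 2, 2 and 0, and EIF3J-AS1, which the annotation names EIF3J-DT and places just upstream of EIF3J on the opposite strand, had 1, 0, 3 and 1. Several members overlap others and may share reads: EIF3C and EIF3CL are near-identical copies on chromosome 16, RPL17 and RPL17-C18orf32 and likewise RPL36A and RPL36A-HNRNPH2 overlap as read-through genes, and the use of strand is not given. Pseudogenes of any type that carry the gene's name exist for 70 of the 75 ribosomal protein genes, with a median of 12 and up to 133 for RPL21. Reads of these copies could be assigned to either.

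Of the 167 protein-coding genes of the annotation that fit the symbol rule, 132 had a row. The 35 others, among them EEF2, EIF3A, EIF5B, RPL7 and RPL11, were not analysed here, so totals per complex cover the measured genes. Related genes outside the symbol rule were also counted. Over all genes, 19.7% had more events in A8i than in A8 and 38.5% had fewer, and the lists below were not tested against these shares. A list of 19 cytosolic aminoacyl-tRNA synthetases and partners, which charge tRNAs, had 100 (A8), 89 (A8i), 86 (A8i-A) and 80 events (A8i-B), with 6 genes higher and 8 lower in A8i than in A8. A list of 28 ribosome assembly genes had 59, 46, 47 and 52, with 2 higher and 10 lower. The 11 measured genes of a list on mTORC1 signalling, with its regulators TSC1 and TSC2 and the RPS6K kinases, had 38, 30, 40 and 35, with 2 higher and 6 lower, and 18 other translation genes had 61, 66, 55 and 69, with 7 higher and 7 lower. In the last list, RACK1, a scaffold on the small subunit, had 10, 12, 10 and 12 events, and PABPC1, the poly(A)-binding protein, had 7, 11, 10 and 10.

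Number of events went with the number of annotated transcripts. Across the 137 members, which are not independent replicates, Spearman's rho between summed events and transcripts per gene was 0.56 and Pearson's r was 0.62. Over 9818 annotated genes they were 0.47 and 0.37. EEF1D, with 54 annotated transcripts, had the most events, whereas EIF3I, with 44, had 1 event in A8i-A and 0 elsewhere. Gene length had a rho of -0.01 with events, GC content 0.09, and the number of pseudogenes named after the gene, over ribosomal protein genes, -0.04. The members had a median of 10 transcripts (9 over all genes) and 3 retained-intron transcripts (1 over all genes), in genes with a median length of 9910 bases (34700 over all genes). Of the ribosomal protein genes 27 of 75 host a snoRNA, as do 8 of 54 factor genes. Across members, Pearson's r between the event numbers of 2 libraries lay between 0.904 and 0.944 and Spearman's rho between 0.767 and 0.887. By class, rho lay between 0.871 and 0.909 for ribosomal protein genes and between 0.71 and 0.873 for factor genes. Across all genes, r lay between 0.798 and 0.808 and rho between 0.71 and 0.726.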

How the data were processed

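RNA of 4 cell lines was sequenced, 1 library each. Per the study's methods, the authors ran TRIzol RNA on an Illumina HiSeq (paired ends), used Trim Galore and FastQC on the reads, aligned them by TopHat to hg19 and took expression from Cufflinks 2.2.1. The submitters' processing notes name the mouse build GRCm38, whereas the gene identifiers are human. The deposited values used here are whole numbers of events per gene, not scaled to depth, and the program and kind of event are not given in the sources used here. The number of fragments behind each library is unknown. Columns of per-sample values left unused numbered 0.

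Members were chosen by symbol, and the members and lists were chosen with earlier results of these data known. Each ratio of totals has a 95% interval from the exact binomial (Clopper-Pearson) limits of its share in the summed total, and single totals have exact Poisson intervals, which take events as independent. Log2 differences were of (events + 1), a scale that understates those of genes with few events. The limit for a single gene was 2-fold with at least 2 events between libraries. Genes named by rule were the 12 with most summed events, those 4 or more events apart, those past the limit in 3 or more of 6 pairs, the first 2 of each role, and those at 0 in 1 library and 2 or more in each other library (44 in all). Genes named outside it were chosen after their values were seen. Annotation was GENCODE v44 on GRCh37, matched for all 137 members and 99.32% of all rows. RefSeq start windows are on GRCh38.p14 and were matched by symbol for 106 members. Alternatives were the share of the library total, scaling to the mean total, 2 or 3 events in place of 1, a 3-fold limit, a pseudocount of 0.1, only members with an event in all 4 libraries, and leaving out pseudogenes and overlapping genes or the member with most events. Leaving out members 4 or more events apart, and all alternatives for each class, were added after the data had been seen. The scripts, tested on simulated data, ran under Python 3.11.15 (scipy 1.17.1, pandas 2.3.3, numpy 2.4.6, matplotlib 3.10.9). Values of some single genes are not reported here.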

Additional observations from a re-analysis of the deposited data

How the results depend on the processing

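With 1 library per cell line, no replicate could be left out, and no difference can be set against the spread between cultures. No paired analysis was possible because each cell line has 1 library. With at least 2 events in place of 1, the share of members was 57.7% (A8), 54.7% (A8i), 57.7% (A8i-A) and 59.9% (A8i-B), and with at least 3 events 40.1%, 38.7%, 43.1% and 41.6%. As a share of the library total, the member events of A8i were 111.0% of those of A8 and those of A8i-B were 97.3% of those of A8i.

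Scaling to the mean total moves genes with the same number to the side of the smaller library. More events then stood in A8i than in A8 for 91 members, and 1 was past the limit downward. In A8i-A against A8i, 84 had fewer and 2 were past the limit upward, and in A8i-B against A8i 85 had fewer and 3 were past it upward. In A8i-A against A8i-B 101 had more and 4 were past it downward, in A8i-A against A8 103 had more, and in A8i-B against A8 109 had more and 4 were past it upward.

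With at least 2 events between libraries, the members with more and fewer events were 8 and 13 for A8i against A8, 22 and 7 for A8i-A against A8i, 21 and 8 for A8i-B against A8i, 17 and 14 for A8i-A against A8i-B, 17 and 8 for A8i-A against A8, and 20 and 9 for A8i-B against A8. With a 3-fold limit, those past it upward and downward were 1 and 1, 2 and 1, 5 and 2, 1 and 5, 2 and 0, and 5 and 2 in the same order. The counts of this section were made for members only, so they cannot be set against the shares over all genes.

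Among members with an event in all 4 libraries, 14 had more events in A8i than in A8 and 1 was past the limit upward. In A8i-A against A8i 13 had fewer, 4 were past the limit upward and 2 downward. In A8i-B against A8i 33 had more and 12 fewer, and 4 were past it upward. In A8i-A against A8i-B 20 had fewer, and 3 were past it in each direction. In A8i-A against A8 2 were past it upward, and in A8i-B against A8 25 had more, 4 were past it upward and 3 downward. Fewer members are tested in that setting, and for the other settings the cause was not tested. The pseudocount of 0.1 moved no count beyond 1.5 times.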
